A study of Homo sapiens with 2 samples.

Results

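The epithelial or mesenchymal state of a cell is set in large part by a small group of regulators, and 10 of them were followed here in MDAMB468 and CAL51, 2 established human cell lines from triple-negative breast cancer. They were chosen by name as 5 regulators of the epithelial state (ESRP1, ESRP2, GRHL2, ELF3 and OVOL1) and 5 of the mesenchymal state (ZEB1, ZEB2, SNAI1, SNAI2 and TWIST1). All 10 matched 1 identifier each among the 30796 genes of the deposited matrix. The labels name the line and its tumour type and give no genotype, treatment or time, and each line was a single Drop-seq library. Drop-seq traps cells in droplets with beads whose primers tag each captured polyadenylated RNA molecule, so that the count of distinct tags (unique molecular identifiers, UMIs) per cell barcode stands for molecules. With 1 library per line no difference has a replicate check and no test was possible. Brackets give 95% bounds from counting error alone, without the spread between cells or between cultures.

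In epithelia, GRHL2, ELF3 and OVOL1 are transcription factors that maintain junction and differentiation genes, while ESRP1 and ESRP2 are splicing factors that impose the epithelial isoforms of their target RNAs. ZEB1, ZEB2, SNAI1 and SNAI2 are zinc finger repressors that bind E-boxes and silence epithelial genes such as CDH1 (E-cadherin), and TWIST1 is a helix-loop-helix factor with the same outcome. ZEB1 and ZEB2 on one side and GRHL2, OVOL factors and the miR-200 family on the other are known to repress each other. In breast cancer, the balance between them is one of the axes on which basal-like and mesenchymal-like tumours are arranged.

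The MDAMB468 library held 306 barcodes with 5501900 UMIs (median 10016.5, highest 134213 per barcode). The CAL51 library held 1377 barcodes, of which 31 had a barcode sequence that also occurs in the MDAMB468 library. These 31 were left out, which left 1346 CAL51 barcodes with 16223444 UMIs (median 8635, highest 113702). Of the MDAMB468 barcodes, 64 were satellites: a further MDAMB468 barcode, 1 base away, held 5 times their UMIs or more. Without the satellites each log2 difference of a regulator stayed within its counting error. The labelled tissue, breast cancer, was checked with markers. The epithelial markers EPCAM, KRT8 and KRT18 stood at 283, 919 and 1555 CPM (the UMIs of a gene divided by all UMIs of the library, in parts per 1e6) in CAL51 and at 867, 764 and 555 CPM in MDAMB468. The other epithelial markers were far lower in CAL51, where KRT19, CLDN4 and CDH1 stood at 30.6, 2.10 and 0.431 CPM, against 1934, 94.9 and 33.1 in MDAMB468. Of the 6 mesenchymal markers CDH2, COL3A1 and PDGFRB had 0 UMIs in MDAMB468 and 1411, 70 and 44 in CAL51, COL1A1 had 22 and 11, FN1 23 and 100, and VIM was abundant in both lines. Leukocyte and endothelial markers were at or near 0: in MDAMB468 and CAL51, PTPRC had 0 and 3 UMIs, CD14 3 and 6, PECAM1 6 and 4, and CDH5 and VWF 0 and 1 each.

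Sequences that were searched for possible links between these regulators are shown first. ZEB and SNAI proteins recognise the E-box CACCTG, which reads CAGGTG on the other strand. RefSeq promoter windows (GRCh38.p14, 250 bases before to 50 after a start site) were taken for the 3 members ELF3, ZEB1 and ZEB2 and for the hosts of the miRNAs that act on ZEB1 and ZEB2, MIR200CHG and MIR205HG. Over all 35116 windows of 300 bases, 20.6% hold at least 1 of the 2 words and 0.635% at least 3. The windows of ELF3, of MIR200CHG and 1 of 7 of ZEB1 are printed because they hold the word and belong to genes that differed between the lines. Capitals mark the E-boxes.
ELF3 (chr1:202010337-202010636, plus strand): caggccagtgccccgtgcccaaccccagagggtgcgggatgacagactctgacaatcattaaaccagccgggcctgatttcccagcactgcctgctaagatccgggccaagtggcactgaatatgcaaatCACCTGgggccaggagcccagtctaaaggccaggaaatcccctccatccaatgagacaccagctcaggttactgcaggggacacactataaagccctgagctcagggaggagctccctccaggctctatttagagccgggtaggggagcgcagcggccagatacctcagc
MIR200CHG (chr12:6962995-6963294, plus strand): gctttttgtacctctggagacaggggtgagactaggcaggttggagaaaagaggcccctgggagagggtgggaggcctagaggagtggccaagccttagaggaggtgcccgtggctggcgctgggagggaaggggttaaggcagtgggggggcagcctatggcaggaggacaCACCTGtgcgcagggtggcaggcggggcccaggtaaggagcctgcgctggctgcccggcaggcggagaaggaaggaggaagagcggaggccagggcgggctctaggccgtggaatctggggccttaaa
ZEB1 (chr10:31318966-31319265, plus strand): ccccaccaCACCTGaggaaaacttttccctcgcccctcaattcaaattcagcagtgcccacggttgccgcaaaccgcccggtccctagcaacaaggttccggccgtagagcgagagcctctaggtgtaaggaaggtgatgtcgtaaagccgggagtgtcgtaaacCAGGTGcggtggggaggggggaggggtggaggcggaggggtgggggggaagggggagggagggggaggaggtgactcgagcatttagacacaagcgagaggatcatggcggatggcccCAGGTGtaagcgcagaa
The E-box of ELF3 begins 120 bases before the start site and that of MIR200CHG 78 bases before it. The ZEB1 window shown holds 3, beginning 242 and 85 bases before the start site and at base 34 after it. It is the ZEB1 window with the most, whereas the background shares are per window. A second ZEB1 window holds 1 and the other ZEB1 windows, the ZEB2 window and the MIR205HG window hold 0. A match is a word in the sequence, and binding was not measured.

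The miRNAs of these hosts are shown because ZEB1 carries matches to each of them and ZEB2 to those of MIR200CHG. The mature sequences are from RefSeq (GRCh38.p14), with the seed, bases 2 to 8, in capitals.
hsa-miR-200c-3p (chr12:6963742-6963764): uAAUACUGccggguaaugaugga
hsa-miR-141-3p (chr12:6964155-6964176): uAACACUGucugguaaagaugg
hsa-miR-205-5p (chr1:209432166-209432187): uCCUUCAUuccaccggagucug
Each has a seed of its own, and those of miR-200c-3p and miR-141-3p differ at 1 base. The longest 3′ UTR of each gene in GENCODE release 29 was searched for the 7-base complement of each seed. ZEB1 (2549 bases of UTR) had 6 matches to miR-200c-3p, 3 to miR-141-3p and 1 to miR-205-5p. ZEB2 (5370 bases) had 5, 4 and 0. Among 12123 genes with at least 20 UMIs, whose median UTR was 1363 bases, 0.0247% had at least 6 matches to miR-200c-3p and 19.4% had at least 1. At least 3 matches to miR-141-3p were found in 1.31% of these genes and at least 1 in 21.4%. At least 1 match to miR-205-5p was found in 13.3%. For the counts of ZEB2, 0.0495% had at least 5 matches to miR-200c-3p and 0.388% at least 4 to miR-141-3p. These shares were not matched for UTR length. The first match of each gene to miR-200c-3p is shown with the complement in capitals.
ZEB1: attgttttatcttatCAGTATT
ZEB2: cgcactaccatacatCAGTATT
Mature miRNAs were not measured in these libraries, which hold polyadenylated RNA, so only the host transcripts can be given.

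MDAMB468 carried RNA of the epithelial regulators ESRP1, GRHL2 and ELF3 and next to none of ZEB1, while CAL51 carried ZEB1 and TWIST1 and next to no ESRP1 or GRHL2. ESRP2 showed no clear difference between the lines, and ZEB2, SNAI1 and SNAI2 were near the detection limit in both. ELF3 was high in MDAMB468 and still well above the floor in CAL51.

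ESRP1 (ENSG00000104413, on chromosome 8) is the splicing factor that gives the epithelial isoforms of targets such as FGFR2 and CD44. It had 349 UMIs in MDAMB468 (63.4 CPM [57.0–70.4]) and 0 in CAL51, where a count of 0 allows up to 3 counts, or 0.185 CPM. Against that floor ESRP1 was at least 343-fold higher in MDAMB468. This fold, like every fold given as at least a value, takes the higher count without its counting error. GRHL2 (ENSG00000083307, on chromosome 8), a grainyhead factor that activates CDH1 and claudin genes, had 212 UMIs in MDAMB468 (38.5 CPM [33.5–44.1]) and 2 in CAL51. The ratio was 313 [85.5–2598]. Both genes were thus well counted in the smaller library and below the floor in the larger one.

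ELF3 (ENSG00000163435, GRCh38, chromosome 1, 202007945 to 202017188), an ETS factor of differentiated epithelia, had 1083 UMIs in MDAMB468 (196.8 CPM [185.3–208.9]). In CAL51 it had 181 UMIs (11.2 CPM [9.59–12.9]), which is 17.6-fold lower [15.1–20.8]. The CAL51 UMIs lay in 134 barcodes, at most 9 in any one of them. Other genes high in MDAMB468 varied over the 1346 CAL51 barcodes. RAB25 and TFAP2C, at 167 and 80.3 CPM in MDAMB468, had 0 UMIs there. KRT19, TFCP2L1 and CLDN7, at 1934, 195 and 303 CPM in MDAMB468, had 496, 61 and 48. Where the ELF3 UMIs of CAL51 came from was not tested.

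OVOL1 (ENSG00000172818, chromosome 11, 65787022 to 65797219), a zinc finger repressor of ZEB1 in epithelia, was low, with 19 UMIs in MDAMB468 (3.45 CPM [2.08–5.39]) and 0 in CAL51. It was at least 18.7-fold higher in MDAMB468 against the floor. ESRP2 (ENSG00000103067, chromosome 16, 68229111 to 68238102), the paralog of ESRP1, had 30 UMIs in MDAMB468 (5.45 CPM [3.68–7.78]) and 73 in CAL51 (4.50 CPM [3.53–5.66]). Its ratio of 1.21 had an interval of 0.765 to 1.88, and its log2 difference ran from -0.28 to 0.33 over the settings, so no direction is given. The ESRP paralogs therefore stood apart from each other: the interval of ESRP2 ends far below the bound of 343-fold for ESRP1. The 31 shared barcodes bear on the epithelial ratios. With them put back into CAL51, ESRP1 had 4 CAL51 UMIs and a ratio of 259 [100.4–957], GRHL2 had 6 and 105 [47.5–289.5], and ELF3 had 221 and 14.6 [12.6–16.9]. The direction was the same with and without them. ESRP2 overlaps NFATC3 on the opposite strand and a further gene on its own strand, and the authors' handling of such reads was not stated in the labels.

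Among the mesenchymal regulators ZEB1 (ENSG00000148516, chromosome 10, 31318495 to 31529814) showed the widest gap. It had 1 UMI in MDAMB468 (0.182 CPM [0.0046–1.01]) and 1101 in CAL51 (67.9 CPM [63.9–72.0]), a ratio of 373 [66.9–14761]. TWIST1 (ENSG00000122691, chromosome 7, 19020991 to 19117672) had 16 UMIs in MDAMB468 (2.91 CPM [1.66–4.72]) and 204 in CAL51 (12.6 CPM [10.9–14.4]). It was 4.32-fold higher in CAL51 [2.60–7.71] and was counted in 13 MDAMB468 barcodes, so it was low but present there.

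The other three did not separate the lines. ZEB2 (ENSG00000169554, chromosome 2, 144364364 to 144524583), the paralog of ZEB1, had 1 UMI in MDAMB468 and 8 in CAL51 (0.493 CPM [0.213–0.972]), a ratio of 2.71 [0.364–120]. SNAI1 (ENSG00000124216, chromosome 20, 49982999 to 49988886), the factor that often opens a transition, had 9 UMIs in MDAMB468 (1.64 CPM [0.748–3.11]) and 13 in CAL51 (0.801 CPM [0.427–1.37]). Its ratio of 2.04 in favour of MDAMB468 had an interval of 0.77 to 5.16. SNAI2 (ENSG00000019549, on chromosome 8), which is active in basal mammary cells, had 1 UMI in MDAMB468 and 0 in CAL51. A difference in these genes was not detectable at this depth.

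**Figure D1:**
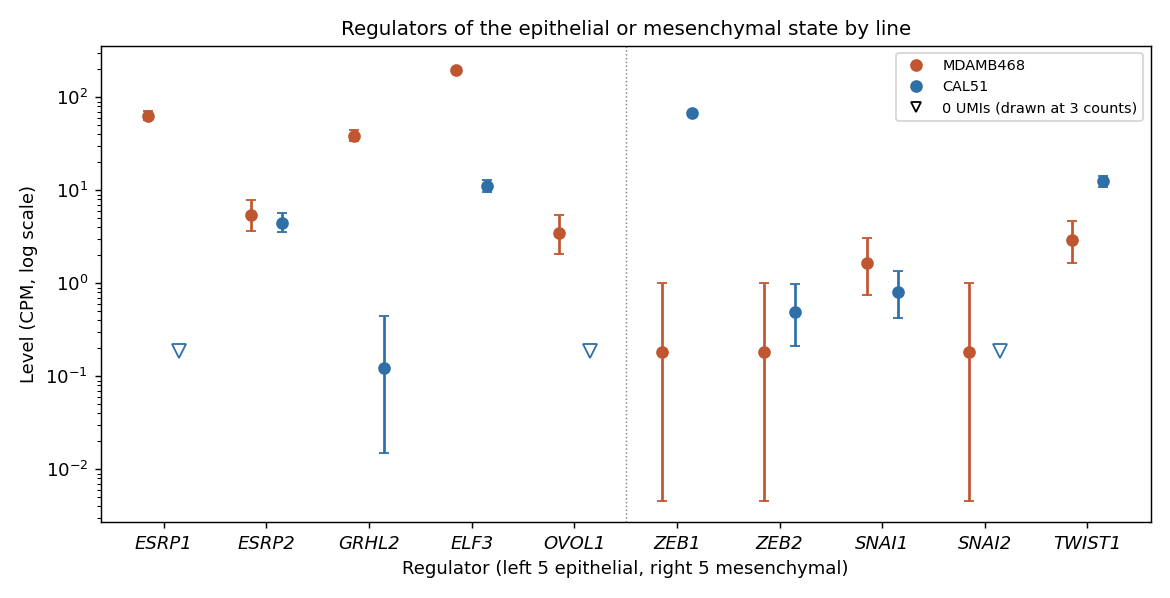
Level of each regulator (CPM, log axis) in MDAMB468 (orange) and CAL51 (blue), with 95% Poisson intervals of the counts as bars; open triangles are genes with 0 UMIs, drawn at the floor of 3 counts. ESRP1, GRHL2, ELF3 and OVOL1 lie higher in MDAMB468, ZEB1 and TWIST1 higher in CAL51, and the intervals of ESRP2, ZEB2 and SNAI1 overlap.

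Counted over the members, 4 of 5 epithelial regulators were at least 2-fold higher in MDAMB468 and 2 of 5 mesenchymal ones at least 2-fold higher in CAL51, on the scale of log2 of CPM + 1. The background for such counts is wide. Of the 30785 genes with at least 1 UMI, 9.8% passed this fold in favour of MDAMB468 and 9.45% in favour of CAL51. Among the 15347 genes with at least 20 UMIs over both lines, a filter that 7 of the 10 members passed, these shares were 15.8% and 18.6%. With that filter, which OVOL1 at 19 UMIs misses, 3 of 4 epithelial regulators were higher in MDAMB468. Of the mesenchymal ones 2 of 3 were higher in CAL51. Without the filter, the median log2 difference was 4.02 over all 5 epithelial regulators and -0.34 over all 5 mesenchymal ones. The latter is the value of ZEB2, which had 1 and 8 UMIs. The mesenchymal regulators that passed the filter stood at -5.86 (ZEB1), -1.80 (TWIST1) and 0.55 (SNAI1). The epithelial ones that passed it stood at 6.01 (ESRP1), 5.14 (GRHL2), 4.02 (ELF3) and 0.23 (ESRP2). Over all genes with at least 20 UMIs the median was -0.13. The members were picked with earlier results of these libraries known, so these counts describe them and test nothing.

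Detection in single barcodes gave the same picture at equal depth. Every barcode was thinned to 2500 UMIs, which all of them reached. ELF3 then had a UMI in 104 of 306 MDAMB468 barcodes (34.0% [28.7%–39.6%]) and in 40 of 1346 CAL51 barcodes (2.97% [2.13%–4.02%]). ESRP1 was seen in 41 MDAMB468 barcodes (13.4% [9.79%–17.7%]) and GRHL2 in 25 (8.17% [5.36%–11.8%]), each against 0 CAL51 barcodes, which allows a share of up to 0.223%. ZEB1 was seen in 192 CAL51 barcodes (14.3% [12.4%–16.2%]) and in 0 MDAMB468 barcodes, which allows up to 0.98%. TWIST1 was seen in 47 CAL51 barcodes (3.49% [2.58%–4.62%]) and in 1 MDAMB468 barcode (0.327% [0.00827%–1.81%]).

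A share at this depth is set by the level of the gene as well as by how many cells express it. Without thinning, ELF3 was found in 73.5% and ESRP1 in 50.3% of MDAMB468 barcodes, and ZEB1 in 44.0% and TWIST1 in 11.9% of CAL51 barcodes. No single barcode held more than 3.72% of the UMIs of ESRP1 or 4.72% of those of GRHL2 in MDAMB468, or 0.999% of those of ZEB1 in CAL51. The levels above therefore rest on many barcodes. For the other members the shares at 2500 UMIs were between 0% and 1.49% in either line, the highest being ESRP2 in CAL51.

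**Figure D2:**
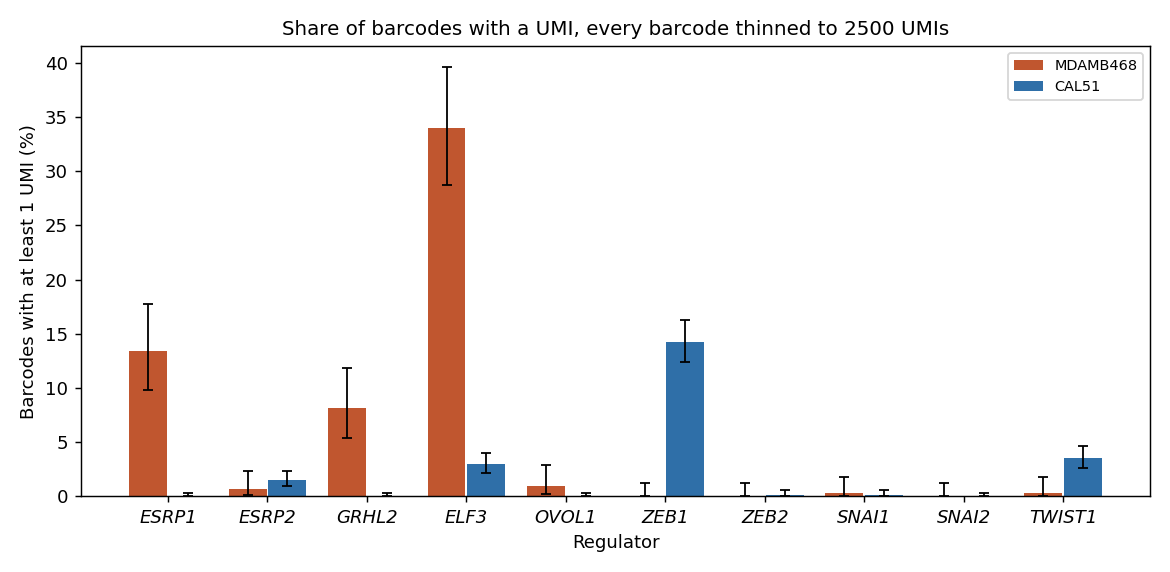
Percent of barcodes with at least 1 UMI of each regulator after every barcode was thinned to 2500 UMIs, in MDAMB468 (orange, 306 barcodes) and CAL51 (blue, 1346 barcodes), with exact 95% binomial intervals. ELF3 reaches 34.0% in MDAMB468 and ZEB1 14.3% in CAL51, and the bars of ZEB2, SNAI1 and SNAI2 are close to 0 in both lines.

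Few barcodes held both kinds of regulator at 2500 UMIs, about as many as the product of the 2 shares gives. At 2500 UMIs, 58 CAL51 barcodes held an epithelial regulator and 236 a mesenchymal one. Of these 9 held both, where the product of the 2 shares gives 10.2. Without thinning 111 CAL51 barcodes held both, where the product gives 92.5, at unequal depth per barcode. Apart from the 2 UMIs of GRHL2, the epithelial regulator UMIs of CAL51 were ELF3 and ESRP2. In MDAMB468, 146 barcodes held an epithelial regulator at 2500 UMIs, 2 a mesenchymal one, and 1 both (product 0.954). Without thinning these MDAMB468 counts were 261, 25 and 23, where the product gives 21.3.

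Joint detection of pairs rested on few barcodes and moved with the depth. Only 212 of 306 MDAMB468 and 1071 of 1346 CAL51 barcodes reached 5000 UMIs, and the others were left out at that depth. In MDAMB468, ESRP1 and GRHL2 were found together in 5 barcodes at 2500 UMIs (product of shares 3.35) and in 8 at 5000 UMIs (8.07). In CAL51, ZEB1 and TWIST1 were found together in 7 barcodes (6.70) and in 21 (12.8). ZEB1 and ELF3 shared 2 CAL51 barcodes (5.71) at 2500 UMIs and 8 (11.98) at 5000, but 68 (58.9) without thinning. Barcodes of 1 library are not replicates, so these counts are descriptions.

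The levels of the regulators also varied among the cells of CAL51. Barcodes of each line were clustered without any gene of the lists used here and without satellites, and 5 CAL51 clusters held 50 or more barcodes, numbered from 0. Cluster 3 (205 barcodes, median 7465 UMIs) was led by TSTD1, CD24, ADAMTS8 and PTGDS and was singled out after its values were seen. There ZEB1 stood at 41.9 CPM [33.5–51.8], against 58.9 to 84.4 CPM in the other 4 clusters, though its interval touched that of cluster 0 (51.4 to 67.1). TWIST1 stood at 6.34 CPM [3.37–10.8], the lowest value of the 5. That interval overlapped those of clusters 0 and 4 and lay below those of clusters 1 (12.2 to 19.2) and 2 (13.6 to 24.4).

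ELF3 and EPCAM ran the other way in that cluster. ELF3 was at 21.9 CPM [16.0–29.4] in cluster 3 and between 6.33 and 13.2 CPM in the others, where cluster 4 (9.11 to 18.4) overlapped it. EPCAM, the epithelial adhesion molecule, was at 551 CPM [520–585] against 160 to 378. Relative to all other CAL51 barcodes (median 8921.5 UMIs), ZEB1 was 1.71-fold lower in cluster 3 [1.37–2.16], TWIST1 2.13-fold lower [1.22–4.08] and ELF3 2.28-fold higher [1.59–3.22]. The member ESRP2 had an undecided ratio of 1.49 [0.752–2.75]. VIM was slightly higher in the cluster, at 355 against 328 CPM (ratio 1.08 [1.001–1.17]). The epithelial RNA-binding protein RBM47, at 55.1 CPM [45.4–66.2], was below clusters 0, 1 and 4 (65.0 to 80.9 CPM) and above cluster 2 (42.9 CPM). Its interval overlapped those of clusters 1 (58.1 to 72.4) and 2 (35.4 to 51.7). CDH2 (N-cadherin) did not follow, at 82.9 CPM in the cluster and 87.7 CPM in the rest (ratio 0.945 [0.801–1.11]).

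The size of the contrast depended on how the barcodes were clustered. It was seen at a finer resolution and with fewer principal components, but a coarser resolution and clustering on thinned counts put CD24 at its highest in larger clusters of 777 and 663 barcodes, and ELF3 was then 1.22-fold and 1.10-fold higher, with intervals of 0.898 to 1.66 and 0.815 to 1.49. ZEB1 was still lower in those larger clusters, by 1.15-fold [1.02–1.29] and 1.30-fold [1.15–1.47], and TWIST1 by 1.80-fold [1.34–2.41] and 1.68-fold [1.25–2.27]. Even in cluster 3 the ESRP1 and GRHL2 counts were 0 UMIs in 2051120. In MDAMB468 ZEB1 had 0, 0 and 1 UMIs in the 3 clusters of 50 or more barcodes. ELF3 there ran from 174 to 200 CPM with overlapping intervals, and GRHL2 from 26.8 [19.2–36.3] to 46.7 CPM [37.7–57.3], the low value being in the cluster led by linker histone genes.

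**Figure D3:**
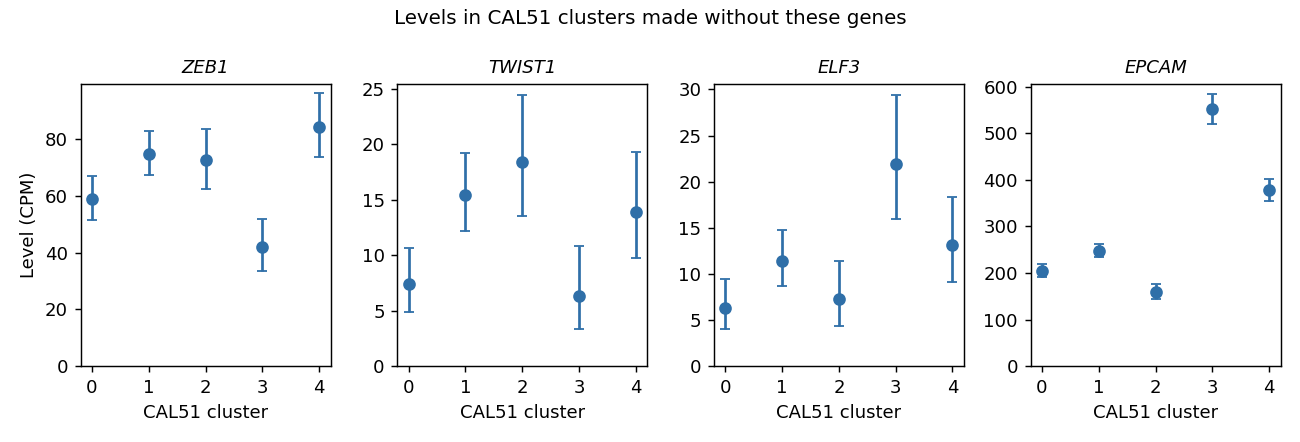
Level (CPM, linear axes from 0) of ZEB1, TWIST1, ELF3 and EPCAM in the 5 CAL51 clusters with at least 50 barcodes, with 95% Poisson intervals of the summed counts as bars. In cluster 3 ZEB1 is lowest at 41.9 CPM, while ELF3 (21.9 CPM) and EPCAM (551 CPM) are highest.

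The hosts of the miRNAs shown above followed the epithelial regulators. MIR205HG, the host of miR-205, had 855 UMIs in MDAMB468 (155 CPM [145–166]) and 2 in CAL51, a ratio of 1261 [348–10426]. The shared barcodes held 12 more MIR205HG UMIs, and with them in CAL51 the ratio was 182 [108–334]. MIR200CHG, the host of miR-200c and miR-141, had 31 UMIs in MDAMB468 (5.63 CPM) and 0 in CAL51. Against the floor it was at least 30.5-fold higher in MDAMB468.

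Of 14 other epithelial transcription factors, 13 had at least 20 UMIs, and 9 of these were at least 2-fold higher in MDAMB468, 1 was higher in CAL51 and 3 were neither. The shares over all genes with that many UMIs were 15.8% in favour of MDAMB468 and 18.6% in favour of CAL51. GRHL1 and OVOL2, relatives of 2 members, were 7.60-fold [5.75–10.1] and 19.2-fold [6.65–75.6] higher in MDAMB468. With the shared barcodes in CAL51 these ratios were 7.25 [5.52–9.62] and 12.9 [5.19–38.3]. GRHL3, the third grainyhead factor, was at 11.1 CPM in MDAMB468 and 10.7 CPM in CAL51 (ratio 1.04 [0.763–1.40]). TFAP2C, a luminal and trophoblast factor, had the highest log2 difference (6.35; 442 and 0 UMIs, at least 434-fold). KLF5, a factor of proliferating epithelia, had the lowest (-1.98), at 31.1 CPM in MDAMB468 and 126 CPM in CAL51. CAL51, with 0 UMIs of ESRP1 and 2 of GRHL2, thus held RNA of KLF5, TFAP2A (164 CPM) and EHF (29.2 CPM).

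The other factors of the mesenchymal programme did not run in 1 direction. Of 13 found, 8 had at least 20 UMIs, with 3 at least 2-fold higher in MDAMB468, 2 in CAL51 and 3 neither. Of all genes with that many UMIs, 15.8% were higher in MDAMB468 and 18.6% in CAL51. HMGA2, a chromatin protein that induces SNAI1 and TWIST1, had 13 UMIs in MDAMB468 and 14058 in CAL51 (867 CPM), a ratio of 367 [214–689]. PRRX1 had 0 and 59 UMIs, at least 6.67-fold higher in CAL51. TWIST2, the paralog of TWIST1, lay in the opposite direction with 165 UMIs in MDAMB468 (30.0 CPM [25.6–34.9]) and 0 in CAL51, at least 162-fold higher in MDAMB468. With the 4 TWIST2 UMIs of the shared barcodes in CAL51 the ratio was 123 [47.0–455], below that value. SOX9, which marks mammary progenitors, had 729 and 3 UMIs, a ratio of 717 [244–3483] that was 434 [185–1339] with the shared barcodes, and ETS1 was 21.2-fold higher in MDAMB468 [15.6–29.6].

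Of 10 splicing regulators other than the ESRP genes, all with at least 20 UMIs, 1 was at least 2-fold higher in MDAMB468 and 1 in CAL51. Among all genes with that many UMIs, 15.8% and 18.6% were, so the count is close to the background. MBNL2 was highest (1.04) and QKI, which favours mesenchymal isoforms, lowest (-1.31; 36.5 and 91.8 CPM, 2.51-fold higher in CAL51 [2.17–2.93]). RBM47, an epithelial RNA-binding protein, was 1.91-fold higher in CAL51 [1.63–2.24], opposite to ESRP1. Of this list the counts depended on scaling: with TMM or median-of-ratios scaling 0 were higher in MDAMB468 and 2 in CAL51.

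The genes that these regulators act on were set beside them. Of 19 epithelial junction and surface genes, all with at least 20 UMIs, 15 were at least 2-fold higher in MDAMB468, 0 in CAL51 and 4 were neither, with a median log2 difference of 3.14. Over all genes with that many UMIs, the shares were 15.8% for MDAMB468 and 18.6% for CAL51. RAB25, a GTPase of epithelial membrane traffic, was highest (7.39, at least 904-fold, or 114-fold [76.1–179], with the 24 UMIs of the shared barcodes) and SPINT2, a protease inhibitor, lowest (-0.004; 347 and 348 CPM). CDH1, the textbook target of ZEB1, was at 33.1 CPM in MDAMB468 and 0.431 CPM in CAL51 (7 UMIs), a ratio of 76.7 [36.5–193]. With the shared barcodes in CAL51 the CDH1 ratio was 54.1 [28.8–115]. CLDN7 was 103-fold higher in MDAMB468 [77.0–140], or 69.9-fold [55.1–89.9] with the shared barcodes, whereas EPCAM was 3.06-fold higher [2.94–3.19].

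Of 20 mesenchymal effectors, 15 had at least 20 UMIs, with 8 at least 2-fold higher in CAL51, 3 in MDAMB468 and 4 neither, and a median of -0.37 over all 20. The all-gene shares with that filter were 18.6% for CAL51 and 15.8% for MDAMB468. CDH2 had 0 UMIs in MDAMB468 and 1411 in CAL51 (87.0 CPM), at least 159.5-fold higher in CAL51, opposite to CDH1. TAGLN, an actin-binding protein of smooth muscle and fibroblasts, had the lowest log2 difference (-6.94, from 11 and 5961 UMIs) and TNC, a matrix protein, the highest (3.82; 77 UMIs and 1). VIM was at 316 CPM in MDAMB468 [301–331] and 332 CPM in CAL51 [323–341], a ratio of 1.05 [0.997–1.11], so vimentin RNA did not separate the line with ZEB1 from the line without it.

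**Figure D4:**
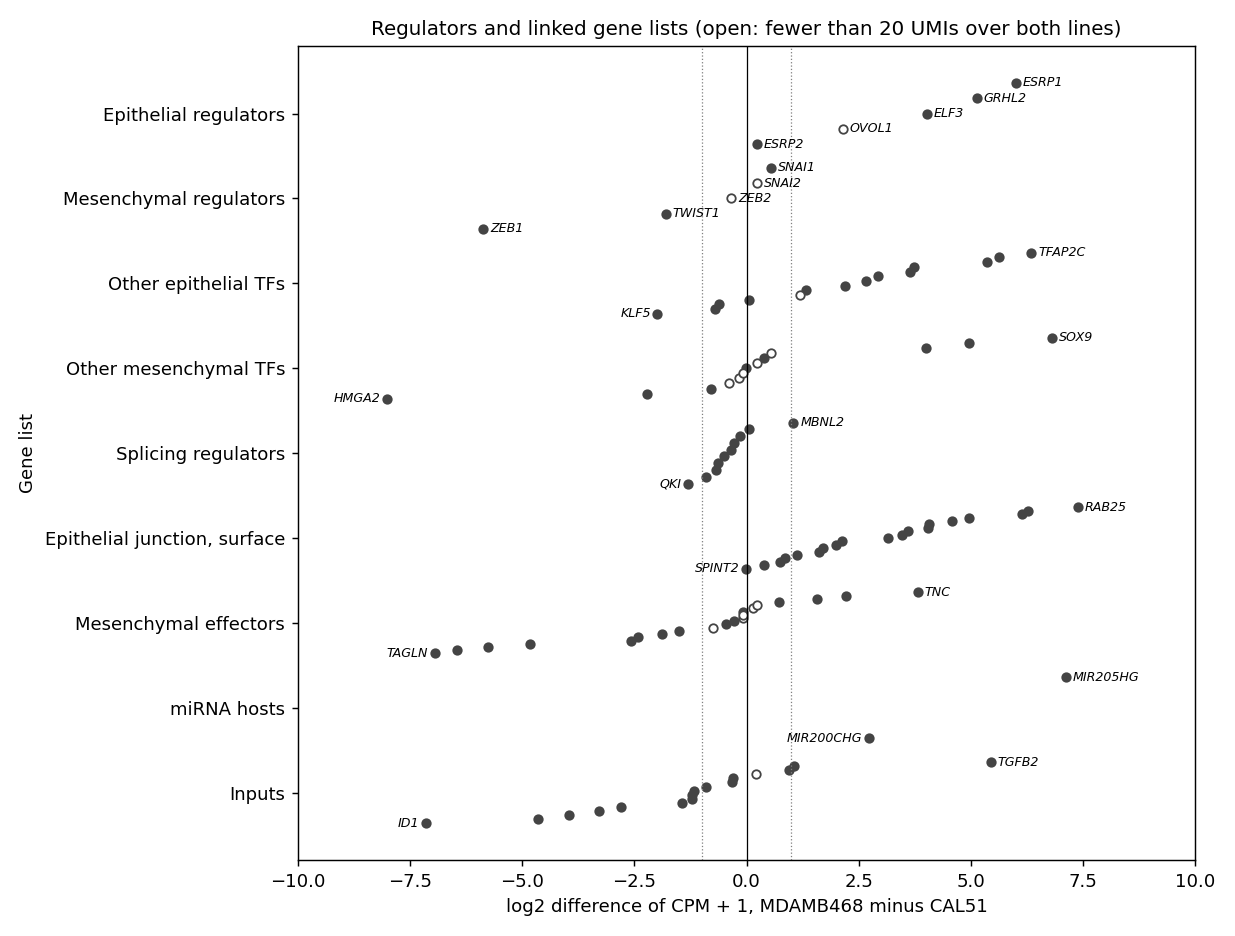
Log2 difference of CPM + 1 (MDAMB468 minus CAL51) of every gene of the regulators and the linked lists; filled points have at least 20 UMIs over both lines, open points fewer, and dotted lines mark the 2-fold limits. The epithelial junction genes lie at or to the right of 0, while mesenchymal effectors and factors spread to both sides, from -8.01 for HMGA2 to 6.82 for SOX9.

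Of 16 signalling inputs to the regulators, 15 had at least 20 UMIs, 9 of them at least 2-fold higher in CAL51, 2 in MDAMB468 and 4 neither. The all-gene shares with that filter were 18.6% for CAL51 and 15.8% for MDAMB468. ID1, an inhibitor of helix-loop-helix factors, had the lowest log2 difference (-7.14; 5.09 and 858 CPM), and ID3 was 9.81-fold higher in CAL51 [9.21–10.5]. JAG1, a Notch ligand, was 29.3-fold higher in CAL51 [20.7–43.0]. TGFB2, a ligand that induces SNAI and ZEB genes, was the highest in MDAMB468 (5.45, from 72.3 and 0.678 CPM, or 1.22 CPM with the shared barcodes). In MDAMB468 the ligand TGFB2 was thus counted beside 1 UMI of SMAD4, the shared mediator of that pathway, against 280 UMIs in CAL51.

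Antisense partners of ELF3, ZEB1 and GRHL2 lay in the direction of the member. ELF3-AS1 had 122 UMIs in MDAMB468 (22.2 CPM) and 38 in CAL51 (2.34 CPM), and ZEB1-AS1 had 4 (0.727 CPM) and 70 (4.31 CPM). ENSG00000254024, on the strand opposite GRHL2, had 15 UMIs in MDAMB468 (2.73 CPM) and 0 in CAL51. Further genes opposite GRHL2 had 3 UMIs or fewer in each line. Whether the authors counted by strand was not stated in the labels, and without strand the RNA of a gene and of its antisense partner cannot be told apart.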

How the data were processed

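Single-cell RNA was measured in 2 Drop-seq libraries, 1 per line. The authors deposited 1 matrix of UMI counts, all whole numbers. The submitters' processing notes name STARsolo without a version or role. Build, annotation and barcode choice were not given in the sources used here. Deposited barcode names and gene identifiers are other, non-numeric columns; per the file headers and names, the prefix of a barcode is its line. Gene names were matched to 30730 of 30796 identifiers, positions were taken from GENCODE release 29 (GRCh38), and sequences from RefSeq and GENCODE.

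UMIs were summed per line and scaled to CPM. Log2 differences are of CPM + 1, MDAMB468 minus CAL51. Intervals are exact Poisson, exact conditional (ratios) and Clopper-Pearson (shares), and a gene at 0 was bounded with 3 counts. That bound uses the count of the other line without its counting error. Drop-seq UMIs do not scale with gene length, but capture differs between genes, so levels are compared between lines. Thinning drew UMIs without replacement. Clusters came from scanpy 1.11.5 and leidenalg 0.10.2 (2000 variable genes, 20 components, 15 neighbours, resolution 0.5). Doublets were not called or removed. edgeR 4.0.16 gave TMM factors only. Python 3.11.15, numpy 2.4.6, scipy 1.17.1 and pandas 2.3.3 were used. The code for ratio intervals and log2 differences was tested on simulated counts. The thinning code was checked on deposited barcodes, for drawn totals equal to 2500 UMIs.

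The members and lists were chosen with earlier results of these data known. Named genes are the 10 members, the highest and lowest gene of each list with at least 20 UMIs, CDH1, CDH2, VIM, EPCAM and list genes named in breaking down a count. For members with at least 200 UMIs in a line, the 3 genes of highest correlation were named where the highest r reached 0.2. Other genes were picked after their values were seen. Alternatives covered barcodes, scaling, pseudocount, filter, thinning and clustering.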

Additional observations from a re-analysis of the deposited data

Results flagged for a closer look

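The 31 CAL51 barcodes left out because their sequences also occur in the MDAMB468 library held epithelial regulator RNA above the 3 counts that a count of 0 allows. ELF3 had 40 UMIs there (296 CPM, interval 211 to 403), against 11.2 CPM in the other CAL51 barcodes and 197 CPM in MDAMB468. ESRP1 had 4 UMIs (29.6 CPM, interval 8.06 to 75.7), while the other 1346 CAL51 barcodes held 0. GRHL2 also had 4 UMIs, where the other CAL51 barcodes held 2. With the 31 barcodes put back, the share of CAL51 barcodes with an ELF3 UMI at 2500 UMIs went from 2.97% to 4.14%. ZEB1 had 1 UMI in these 31 barcodes (7.39 CPM, interval 0.187 to 41.2), below the 67.9 CPM of the other CAL51 barcodes.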

How the results depend on the processing

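No paired analysis was possible because each line has 1 library. No count or call of a gene list changed direction. Of the members, ESRP2, for which no direction was called, went from 0.23 to -0.28 with the mean of CPM per barcode. Leaving out satellites, or putting the shared barcodes back into CAL51, changed none of the counts of genes at least 2-fold apart by over 1.5 times. Shares moved with thinning depth: 12 of 20 left their interval without thinning, 9 at 1000 UMIs and 7 at 5000, and ELF3 in MDAMB468 ran from 14.7% to 73.5%. The depth of 5000 also changed the barcodes, leaving out 94 of MDAMB468 and 275 of CAL51. Among the counts, a pseudocount of 10 CPM moved 8 of 18. Over all genes, 1046 were then higher in MDAMB468 and 1146 in CAL51, where 2429 and 2847 had been at 1 CPM. OVOL1, which has fewer than 20 UMIs, stood at 0.43 with that pseudocount and no longer passed the fold. Of the mesenchymal regulators 1 was then higher in CAL51 (ZEB1 at -2.93, while TWIST1, at -0.81, no longer was), of the other mesenchymal factors 1 in CAL51, of the splicing regulators 0 in MDAMB468, of the mesenchymal effectors 1 in MDAMB468 and 4 in CAL51, and of the inputs 1 in MDAMB468. With TMM or median-of-ratios scaling, which shift the median of all genes by -0.12 and -0.13, 0 splicing regulators were higher in MDAMB468 and 2 in CAL51, and 1 input was higher in MDAMB468. The mean of CPM per barcode also gave 1 input. Of 80 alternative log2 differences of the members 66 stayed within the counting interval, and 12 of the 14 that left it did so under another pseudocount, ESRP1 running from 2.88 to 9.31 and ZEB1 from -7.91 to -2.93. The CPM + 1 scale hides part of the effect of the shared barcodes on genes near 0 in CAL51, so ratios with them stand beside several of the results. Not every fold is given both ways. At 5000 UMIs, TWIST1 and ELF3 met in CAL51 barcodes 0.475 times as often as their shares give, against 3.58 times at 2500, on 1 and 5 barcodes, and ZEB1 and ELF3 went from 0.351 times to 1.15 times without thinning. The cluster alternatives were chosen after seeing the data. Depth limits ZEB2, SNAI1 and SNAI2, and 1 library per line limits everything.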

Other observations

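Within MDAMB468, no gene tracked a regulator closely over the 306 barcodes thinned to 2500 UMIs. Of 5899 genes compared, the highest Pearson r was 0.23 for ESRP1 (DNAJB11, then DOCK5 and GGCX), 0.26 for GRHL2 (FBXW5, then STC1 and DYNC1H1) and 0.23 for ELF3 (CRTAP, then PEX13 and ASXL1). The barcodes share a library and include satellites, and in counts this sparse such values are no finding. In CAL51, over 1346 barcodes and 6263 genes, the highest r was 0.12 for ZEB1 and 0.11 for TWIST1, under the limit of 0.2 set for naming genes.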
